A study of Mus musculus with 24 samples.

Results

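The dual-specificity MAP kinase phosphatases described here are Dusp1, Dusp2, Dusp4, Dusp5, Dusp6, Dusp7, Dusp10 and Dusp16, which were taken by gene symbol as 8 of the 22009 named genes in the expression table. RNA sequencing had been carried out on CD4+ T cells from the spleens of adult wild-type C57BL/6 mice, purified by negative magnetic selection. The 24 libraries were 2 of resting cells, 18 of cultures activated through CD3 and CD28 and sampled every 4 h from 4 to 24 h in Th0, Th1 or Th2 skewing conditions, and 4 of cells stimulated for 16 h and then given actinomycin, which blocks transcription, for 0, 1, 2 or 4 h. Anti-CD3 and anti-CD28 were given alone in Th0, together with IL-12 and anti-IL-4 in Th1, and in Th2 together with IL-4 and antibodies to IL-12 and to IFN-γ. The cells had been pooled from several mice and each combination of condition and time was sequenced 1 time. The p-values thus measure the spread between libraries of 1 pool and not between animals. No culture was repeated. In the comparisons of time points the spread comes from the gaps between Th0, Th1 and Th2 and between the 2 resting libraries. Between conditions it is what is left once condition and time are fitted, and after actinomycin it is the distance from a line. By the study's figure legend, cells were taken out of the cultures as time went on. The time points of a condition thus form 1 series and may not be independent of each other. The labels call the cells purified CD4+ T cells, whereas the study's methods describe naive cells. The resting libraries carry a different tag in their titles from the cultures, and preparation and activation cannot be told apart.

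MAP kinases pass signals from surface receptors to the nucleus in 3 main branches, ERK, JNK and p38, and are active when both a threonine and a tyrosine in their activation loop carry a phosphate. The dual-specificity MAP kinase phosphatases remove both phosphates and so switch the kinases off. Many of their genes are themselves turned on by MAP kinase signalling, which makes them feedback brakes, and in T cells the T cell receptor drives ERK through Ras. Dusp1, Dusp2, Dusp4 and Dusp5 encode nuclear, inducible enzymes, of which DUSP5 acts on ERK. Dusp6 and Dusp7 encode cytoplasmic enzymes that act mainly on ERK, and Dusp10 and Dusp16 encode enzymes that prefer JNK and p38.

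Expression was given in RPKM, read counts scaled by transcript length and by library size, so that levels can be set side by side between genes. Depth, worked out from the smallest steps in the values, ran from 17512385 to 33017133 mapped reads over the 24 libraries. The summed level of 8 CD4 T cell markers was between 2075 and 2098 RPKM in resting cells and between 1328 and 1611 RPKM at 24 h, against 12.4 to 12.7 RPKM for the 2 CD8 markers at rest. The resting libraries also held transcripts of other cells: the 12 macrophage and monocyte markers, none of them at 0, summed to between 497 and 519 RPKM at rest, 45.1 to 77.0 RPKM at 4 h and 7.95 to 12.7 RPKM at 24 h, and the 7 red cell markers summed to over 38837 RPKM at rest and at most 212 RPKM at 24 h. Genes on the opposite strand overlap Dusp1, Dusp5, Dusp10 and Dusp16 in GENCODE M21. Since the sources do not state that reads were counted by strand, reads of such partners cannot be told apart from theirs. Dusp1 also overlaps a processed pseudogene and a sense intronic gene on its own strand, which counting by strand would not separate. In such bulk samples fewer cells of a type and less RNA per cell cannot be told apart.

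All 8 genes were above 0 in all 24 libraries. In resting cells Dusp1 had the highest level, 226 ± 11.1 RPKM (SD, n = 2), followed by Dusp2 with 134 ± 4.13, Dusp5 with 44.0 ± 5.37, Dusp6 with 25.6 ± 0.354, Dusp10 with 23.2 ± 2.19, Dusp7 with 19.6 ± 1.26, Dusp4 with 5.74 ± 0.0540 and Dusp16 with 1.57 ± 0.0454. None of these neighbours overlapped between the 2 resting libraries, although with 2 libraries the spread is poorly known. By 24 h the order was Dusp2, Dusp5, Dusp4, Dusp6, Dusp10, Dusp7, Dusp1 and Dusp16, and from Dusp4 to Dusp7 each gene's cultures overlapped those of the next. Dusp1 had thus moved from the top of the list to the last place but one, and Dusp4 from the last place but one to the third. The summed level of the 8 genes was 462 to 497 RPKM at rest, 464 to 520 RPKM in the 12 h cultures and 291 to 346 RPKM in the 24 h cultures.

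**Figure D1:**
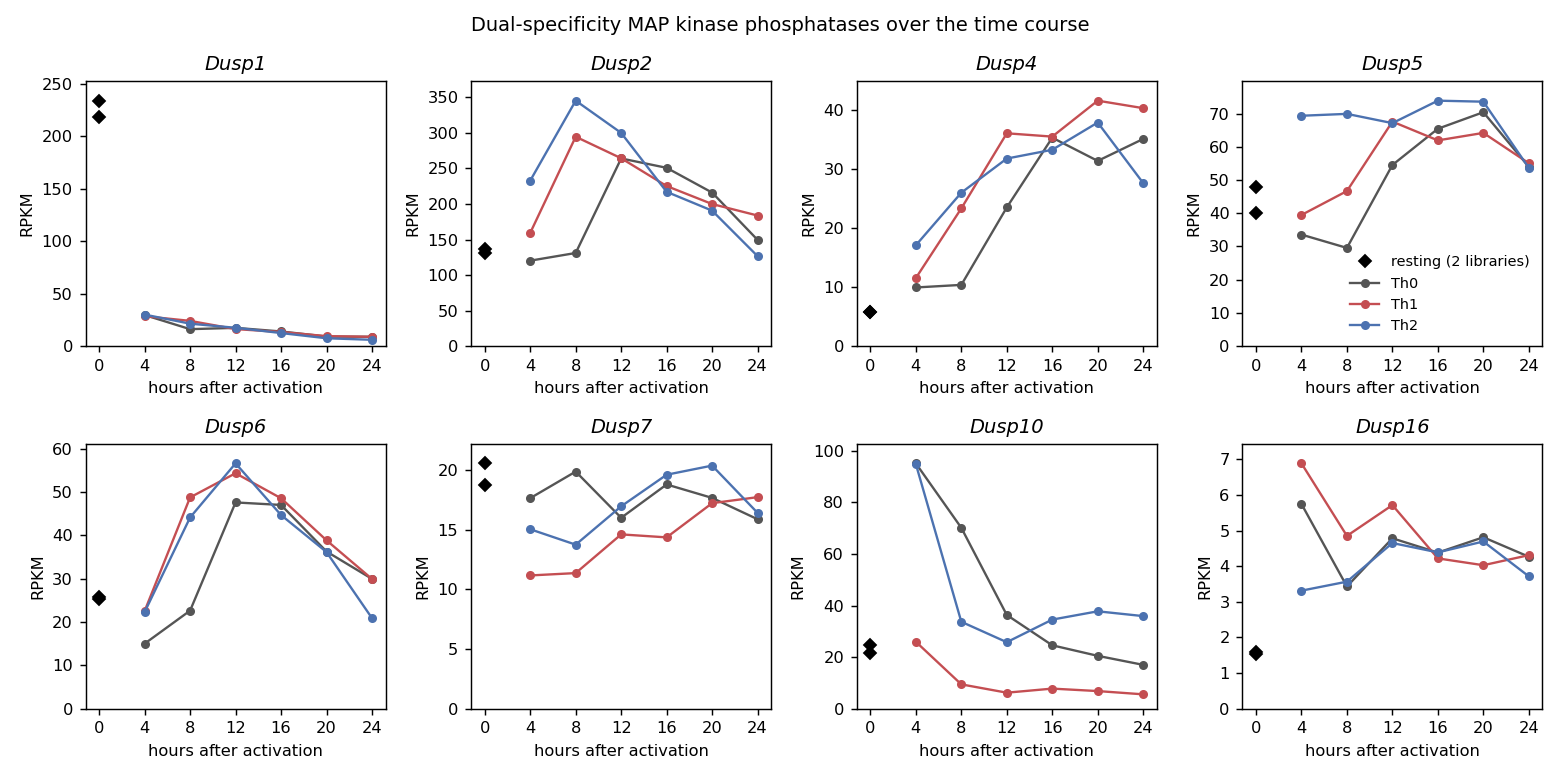
RPKM of each of the 8 genes against hours after activation, on linear axes that start at 0, with the 2 resting libraries as diamonds at 0 h and 1 library per point for Th0, Th1 and Th2. Dusp1 lies above 218 RPKM at rest and at or below 30.02 RPKM in all 18 cultures, and Dusp10 in Th1 lies below Th0 and Th2 at 6 of 6 time points.

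Dusp1, also known as MKP-1 and an immediate-early gene that acts on all 3 MAP kinase branches, lies at chr17:26505590-26562128 on the minus strand of GRCm38 (ENSMUSG00000024190.7). Its level was 218 and 234 RPKM in the resting libraries. From 4 to 24 h it was 29.6, 16.1, 17.4, 13.9, 9.10 and 8.84 RPKM in Th0. The Th1 cultures held 28.5, 24.0, 16.2, 13.5, 9.46 and 8.86 RPKM over the same time points, and the Th2 cultures 30.02, 21.4, 17.4, 12.4, 7.46 and 6.00 RPKM. All 18 cultures lay below both resting libraries, the Th1 and Th2 cultures lay between 0.678 and 1.49 times the Th0 culture of the same time, and within each condition the 24 h library was the lowest. At 4 h, 13.0% of the resting mean was left, and at 24 h 3.50%.

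Most of a list of 13 immediate-early and stress genes, of the kind that cells turn on during isolation, were also lower after activation, although not all. Their summed level was 3021 to 3124 RPKM at rest, 1023 to 1820 RPKM at 4 h and 425 to 561 RPKM at 24 h. At 4 h 8 of the 13 were lower than at rest and 2 were higher (limma adjusted p under 0.05 and at least 2-fold), beside 7.97% and 2.61% of all genes tested, with the largest falls in Fos (-4.05 on the log2 scale), a partner in the AP-1 transcription factor, and in the heat shock genes Hspa1b (-3.83) and Hspa1a (-3.76), whereas Nr4a1 (2.19) and Egr1 (1.22), both induced by the T cell receptor, rose. At 24 h 10 of the 13 were lower and none was higher, beside 17.4% and 12.7% of all genes. At 4 h Fos was at 6.06% of its resting mean, Hspa1a at 7.25%, Jun at 8.44%, Zfp36 at 30.5% and the macrophage markers at 11.7%, beside 13.0% for Dusp1, 62.1% for the B cell markers and 70.0% for the CD4 T cell markers. The part of isolation stress and of other cells in the fall of Dusp1 was not tested.

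**Figure D2:**
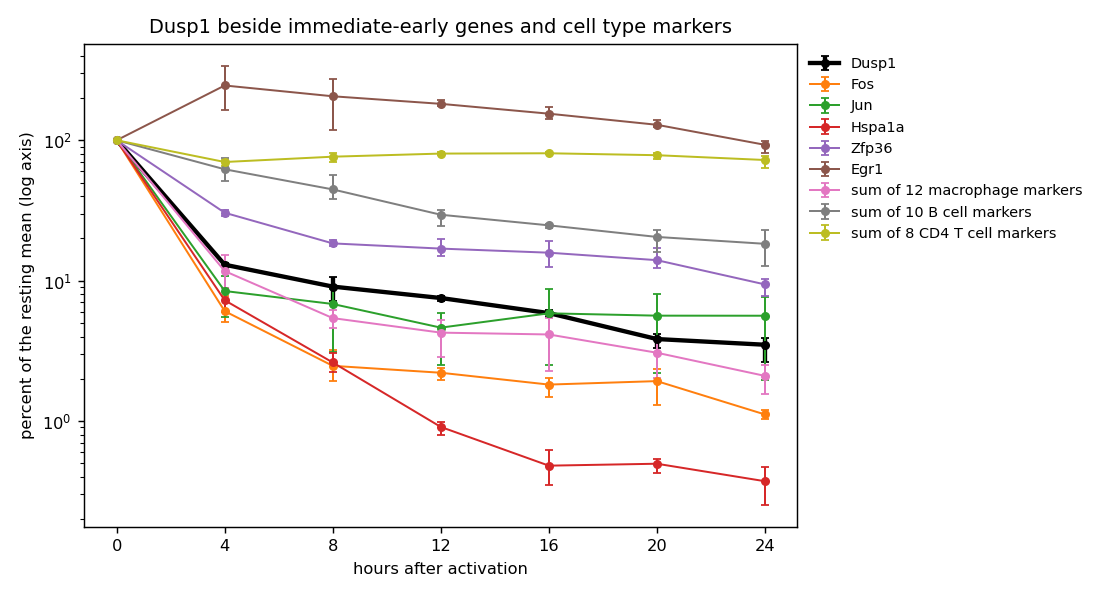
Level as a percentage of the resting mean (log axis) against hours after activation for Dusp1, 5 immediate-early or stress genes chosen after their values were seen, and 3 summed marker lists; points are means of the 3 cultures, and bars run from the lowest to the highest of them. Dusp1, at 13.0% at 4 h and 3.50% at 24 h, lies above Fos, Jun, Hspa1a and the macrophage markers from 4 to 16 h, falls below Jun at 20 and 24 h and lies below Zfp36 and Egr1 throughout, while the CD4 T cell markers stay between 70.0% and 80.8%.

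The promoter of Dusp1 is shown because it holds a full cyclic AMP response element, TGACGTCA, the letters bound by CREB and ATF factors. It is given from RefSeq (GRCm38.p6) as the 250 bases before and 50 after the transcription start, chr17:26508423-26508722, minus strand, with the element in capitals.
Dusp1: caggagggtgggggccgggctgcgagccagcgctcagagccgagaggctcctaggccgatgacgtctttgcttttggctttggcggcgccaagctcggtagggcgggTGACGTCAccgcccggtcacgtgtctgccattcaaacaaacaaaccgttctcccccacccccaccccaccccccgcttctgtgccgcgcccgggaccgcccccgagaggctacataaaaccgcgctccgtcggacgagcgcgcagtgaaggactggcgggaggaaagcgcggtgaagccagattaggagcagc
The element lies 143 to 136 bases before the start. Of 32851 promoters of the same length, 1.79% held TGACGTCA on either strand, and of the 7 members with a promoter in the table (not Dusp4) Dusp1 alone did. The shorter TGACG lies within TGACGTCA on both strands. Of its 3 matches in Dusp1, those at -143 to -139 and -140 to -136 are the opposite strands of that element. TGACG was found 1 time each in Dusp2, Dusp5 and Dusp16, against 20.8% of all promoters with at least 1. The AP-1 letters TGANTCA were in none of the 7 and in 7.81% of all promoters. These matches describe the letters in the window and not binding.

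Dusp2, Dusp4 and Dusp5, the other nuclear and inducible enzymes, took a different course from Dusp1. Dusp2 (PAC-1, chr2:127336159-127338376, plus strand, ENSMUSG00000027368.6), a phosphatase largely confined to blood cells, was at 131 and 137 RPKM in resting cells. Its levels in Th0 from 4 to 24 h were 120.2, 131, 264, 251, 216 and 149 RPKM. In Th1 they were 159, 295, 264, 225, 199.97 and 184 RPKM, and in Th2 233, 345, 300.1, 217, 191 and 127 RPKM. Dusp2 was thus above both resting libraries in 15 of 18 cultures, peaked at 8 h in Th1 and Th2 and at 12 h in Th0, and had fallen to between 127 and 184 RPKM by 24 h.

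Dusp4 (MKP-2, chr8:34807297-34819894, plus strand, ENSMUSG00000031530.6) started low, at 5.78 and 5.71 RPKM. It was 9.95, 10.4, 23.5, 35.4, 31.4 and 35.2 RPKM in Th0. In Th1 it was 11.5, 23.4, 36.1, 35.5, 41.6 and 40.4 RPKM, and in Th2 17.1, 26.0, 31.8, 33.3, 37.9 and 27.7 RPKM. All 18 cultures lay above both resting libraries, and unlike Dusp2 the gene was still high at 24 h. These values rested on 313 reads in the first resting library, or 5.78 RPKM with an exact Poisson 95% interval of 5.16 to 6.46, and on 664 reads in the Th0 library at 4 h, or 9.95 RPKM with an interval of 9.21 to 10.7; such intervals cover counting error only.

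Dusp5 (chr19:53529109-53542431, plus strand, ENSMUSG00000034765.6), which binds ERK and holds it in the nucleus, was at 40.2 and 47.8 RPKM in resting cells. The Th0 cultures held 33.6, 29.6, 54.5, 65.4, 70.4 and 54.0 RPKM. The Th1 cultures held 39.5, 46.7, 67.6, 61.9, 64.2 and 55.1 RPKM and the Th2 cultures 69.3, 69.9, 67.1, 73.9, 73.6 and 53.7 RPKM. At 4 and 8 h the Th2 libraries lay well above the others, whereas at 24 h the 3 conditions lay between 53.7 and 55.1 RPKM. The 954 to 5610 reads behind each Dusp5 value keep counting error small beside these gaps: at 8 h the interval was 28.2 to 30.9 RPKM in Th0 and 67.6 to 72.3 RPKM in Th2.

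The Dusp5 promoter is shown because it holds a pair of adjoining CArG boxes, the letters bound by serum response factor, which works with ERK-driven partners. The 300 bases at chr19:53528895-53529194, plus strand (RefSeq, GRCm38.p6), have both boxes in capitals.
Dusp5: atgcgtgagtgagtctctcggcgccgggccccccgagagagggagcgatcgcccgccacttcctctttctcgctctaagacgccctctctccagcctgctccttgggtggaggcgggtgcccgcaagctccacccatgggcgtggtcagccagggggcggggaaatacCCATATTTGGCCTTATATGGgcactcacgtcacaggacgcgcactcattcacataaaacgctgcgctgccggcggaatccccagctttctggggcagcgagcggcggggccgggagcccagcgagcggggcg
The boxes, CCATATTTGG and CCTTATATGG, lie 82 to 73 and 72 to 63 bases before the start. A CArG box was found in 1.63% of the 32851 promoters and in no other member with a promoter in the table.

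Dusp6 (MKP-3, chr10:99263231-99267489, plus strand, ENSMUSG00000019960.8), a cytoplasmic ERK phosphatase often used as a readout of ERK signalling, was at 25.3 and 25.8 RPKM at rest. It was 15.0, 22.6, 47.6, 47.0, 36.3 and 29.97 RPKM in Th0. The values in Th1 were 22.5, 48.8, 54.3, 48.6, 38.9 and 29.9 RPKM, and in Th2 22.3, 44.1, 56.6, 44.7, 36.2 and 20.9 RPKM. In all 3 conditions Dusp6 was below both resting libraries at 4 h, highest at 12 h, and lower again by 24 h, with the Th0 library at 8 h still below rest when the others were above it. Dusp7 (chr9:106368632-106375724, plus strand, ENSMUSG00000053716.9), the other ERK phosphatase of the cytoplasm, moved least of the 8 by the ratio of its highest to its lowest culture, 1.82, with 18.8 and 20.5 RPKM at rest and 11.2 to 20.3 RPKM in the 18 cultures. Its lowest values were those of Th1, at 11.2 RPKM at 4 h and 11.4 RPKM at 8 h.

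Dusp10 (MKP-5, chr1:184013302-184075636, plus strand, ENSMUSG00000039384.8), which acts on JNK and p38, varied most: its highest culture was 17.0 times its lowest. In resting cells it was at 21.6 and 24.7 RPKM. The Th0 series was 95.1, 70.1, 36.3, 24.6, 20.5 and 17.0 RPKM. The Th1 series was 26.0, 9.46, 6.24, 7.82, 6.86 and 5.60 RPKM and the Th2 series 94.8, 33.7, 25.8, 34.5, 37.8 and 35.9 RPKM. The Th0 and Th2 cultures lay far above both resting libraries at 4 h, whereas the Th1 culture of that time was just above rest and the later Th1 cultures were all below it. From 8 to 24 h Th0 fell step by step, while Th2 reached its lowest value at 12 h and was above Th0 from 16 h on. The promoter of Dusp10, shown as that of the member that differed between conditions, is the 300 bases at chr1:184034131-184034430, plus strand (RefSeq, GRCm38.p6); none of the 4 motifs searched was in it, so no letters are in capitals.
Dusp10: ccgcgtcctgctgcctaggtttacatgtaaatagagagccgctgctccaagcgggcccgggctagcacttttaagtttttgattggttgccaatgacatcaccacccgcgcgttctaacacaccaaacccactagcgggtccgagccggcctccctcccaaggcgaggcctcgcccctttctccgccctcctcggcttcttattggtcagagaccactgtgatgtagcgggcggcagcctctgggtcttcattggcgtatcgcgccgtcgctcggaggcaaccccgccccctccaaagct
This window lies within the gene as annotated by GENCODE M21, whose other transcript starts upstream.

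Dusp16 (MKP-7, chr6:134715468-134792625, minus strand, ENSMUSG00000030203.17), a phosphatase of JNK and p38 with a long tail, had the lowest levels of the 8, 1.53 and 1.60 RPKM at rest. It was 5.75, 3.43, 4.78, 4.38, 4.81 and 4.27 RPKM in Th0. In Th1 it was 6.88, 4.85, 5.71, 4.22, 4.03 and 4.31 RPKM, and in Th2 3.31, 3.57, 4.65, 4.39, 4.69 and 3.72 RPKM. All 18 cultures were above both resting libraries, and the conditions were furthest apart at 4 h, where Th1 was the highest and Th2 the lowest.

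To ask which of the phosphatases changed on activation, the 3 cultures of a time point were compared with the 2 resting libraries, and a gene was taken as changed where limma gave an adjusted p under 0.05 and the difference was 2-fold or more on the log2(RPKM + 0.5) scale. These 3 cultures were 1 each of Th0, Th1 and Th2, so gaps between the conditions counted as spread. At 4 h 3 of the 8 had changed, against 10.6% of the 10897 genes tested. Dusp1 was lower, by -2.92 (SE 0.17, limma adjusted p = 2.41e-09), in a direction that 7.97% of all genes took. Dusp16 was higher, by 1.44 (SE 0.21, limma adjusted p = 7.18e-05), as was Dusp4, by 1.06 (SE 0.30, limma adjusted p = 0.0128), a direction that 2.61% of all genes took. The call for Dusp4 was lost without either resting library (limma adjusted p = 0.0736 without the first and 0.0781 without the second), without Th1 (limma adjusted p = 0.0588) and, by the size of the change (0.85), without Th2. For Dusp2, Dusp5, Dusp6 and Dusp7 the differences were 0.30, 0.04, -0.37 and -0.44 with adjusted p of 0.489, 0.932, 0.275 and 0.112. Dusp10 was at 1.40 (SE 0.96, limma adjusted p = 0.292), its wide error following from the gap between Th1 and the other conditions; without the Th1 cultures it was at 2.01 (limma adjusted p = 0.00812).

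At 24 h the same 3 genes had changed, beside 30.1% of all genes. Dusp1 had fallen further, with a difference of -4.77 (SE 0.17, limma adjusted p = 5.52e-13) from rest, and 17.4% of all genes were lower. Dusp4, at 2.47 (SE 0.30, limma adjusted p = 3.58e-06), and Dusp16, at 1.15 (SE 0.21, limma adjusted p = 1.59e-04), were higher, as were 12.7% of all genes; Dusp16 fell just under 2-fold, at 0.99, with a pseudocount of 1. Dusp2, Dusp5, Dusp6, Dusp7 and Dusp10 were at 0.18, 0.30, 0.05, -0.23 and -0.59 relative to rest, with adjusted p between 0.325 and 0.861. Between 4 and 24 h Dusp1 fell, by -1.85 (SE 0.15, limma adjusted p = 4.76e-08), and Dusp4 rose, by 1.40 (SE 0.27, limma adjusted p = 2.66e-04), 2 of the 8 beside 26.2% of all genes. Dusp10 was -1.98 (SE 0.86, limma adjusted p = 0.0506) at 24 h against 4 h and so just missed the threshold, which it passed in 5 of the alternatives, including 1 that left out Th1 (limma adjusted p = 0.00465). The comparisons with rest share the 2 resting libraries and the last shares the cultures, so they are not independent of each other.

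**Figure D3:**
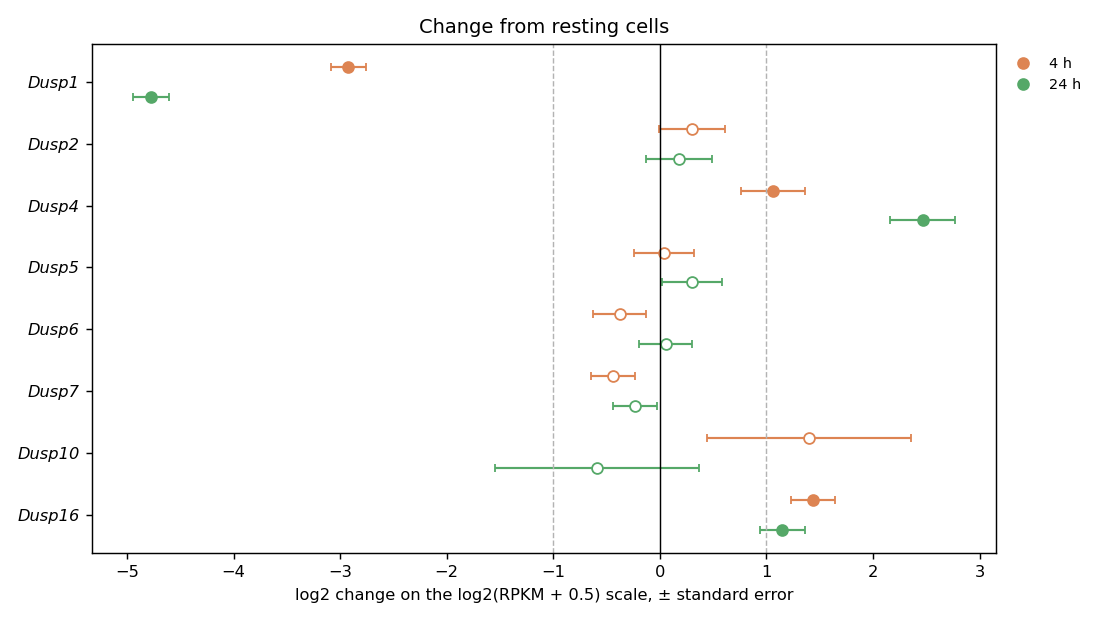
Log2 change from resting cells at 4 h and at 24 h for each gene, with bars for the standard error of the limma fit, dashed lines at 2-fold and filled points for changes past the threshold. Dusp1 lies at -2.92 and -4.77, Dusp4 and Dusp16 lie to the right at both times, and Dusp10 has the widest bars.

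The other genes of the pathway gave the setting, and their counts stand beside the shares of all genes tested. At 4 h 2.61% of all genes were higher and 7.97% lower, and at 24 h 12.7% and 17.4%. Of 18 other DUSP genes, most of them atypical members of the family, 8 had a mean of 1 RPKM or more. Dusp8 and Dusp9, the remaining genes of MAP kinase phosphatases in that list, were at 2.02 and 0.115 RPKM on average at rest and at no more than 0.450 and 0.243 RPKM on average in any skewing condition. Of the 8, at 4 h only Dusp14 (1.01) was past the threshold; at 24 h Dusp14 (1.13) was higher and Dusp23 (-1.08) lower. None of the 8 ERK module kinases had changed at 4 h, and at 24 h Mapk3, which encodes ERK1, was lower (-1.09). In the JNK module Map3k4 was lower at 4 h (-1.11) and Map3k1 at 24 h (-1.51), 1 of 7 tested each time. In the p38 module 4 of 8 had changed at 4 h, with the p38 activator Map2k6 (-2.51) and p38α itself, Mapk14 (-1.18), lower and the activator Map2k3 (1.78) and the p38 substrate Mapkapk3 (1.59) higher. At 24 h Map2k6 (-1.96) was lower and Mapkapk3 (1.44), Mapkapk2 (1.23) and Map2k3 (1.14) were higher.

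Upstream, of 10 Ras activators and Ras genes tested 3 were lower at 24 h and none was higher, beside 17.4% and 12.7% of all genes. The 3 were Rasgrp2 (-4.11), Rasgrp4 (-1.65) and Rasgrp1 (-1.18), the main Ras exchange factor of T cells. At 4 h Rasgrp2 (-1.74) was lower. Of 11 other brakes on Ras and ERK tested, Spry1 was higher at 4 h (1.41) and at 24 h (2.91), while Rasal1 (-2.35) and Spry2 (-1.11) were lower at 4 h and Rasa3 (-2.55), Spry2 (-1.96) and Rasal3 (-1.67) were among 4 that were lower at 24 h. Of 9 other phosphatases that act on MAP kinases or on the receptor-proximal kinases above them, Ptpn6 (-1.28) and Ptpn7 (-1.18) were lower and Ptpn22 (1.04) higher at 4 h, and Ptpn5 (1.35) was higher at 24 h. Among 11 ERK-induced genes tested, Egr3 (3.38), Egr2 (3.19), Fosl1 (1.65) and Egr1 were higher and Fos lower at 4 h, and at 24 h Fosl1 (2.76), Myc (2.58) and Egr3 (2.47) were among 4 that were higher and Fos and Ier2 were lower. Of 13 AP-1 and other MAP kinase substrates, Fosl2 (3.13) was higher and Jun (-3.59), Fosb (-3.29) and Junb (-2.45) lower at 4 h; at 24 h Fosb (-5.44), Jun (-4.33) and Junb (-2.92) were among 4 that were lower. The median change at 4 h was 0.17 over the 8 phosphatases and -0.04 over all genes tested, and at 24 h 0.12 and -0.04.

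To ask whether the skewing conditions set the phosphatases apart, conditions were compared over the 6 time points with the time point in the fit. Each condition was 1 series of time points, so the p-values do not cover the spread between repeats of a series. Dusp10 was lower in Th1 than in Th0, by -1.96 (SE 0.20, limma adjusted p = 6.45e-05), the only 1 of the 8, beside 0.494% of the 10737 genes tested. The Th1 culture held 0.135 to 0.335 of the Th0 level and was lower at 6 of 6 time points. Dusp10 was also higher in Th2 than in Th1, by 2.10 (SE 0.20, limma adjusted p = 2.50e-06), again the only 1 of the 8, beside 1.96% of all genes. The Th2 culture held 3.56 to 6.41 times the Th1 level and was higher at 6 of 6 time points. Only 2 genes had a lower value between Th1 and Th0, and 11 had a higher value between Th2 and Th1. Both differences share the Th1 cultures. Both calls held under each of the 15 alternatives, with values between -2.05 and -1.77 for Th1 against Th0 and between 2.01 and 2.25 for Th2 against Th1.

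Between Th2 and Th0 none of the 8 was past the threshold in limma, beside 2.01% of all genes, with 2 of the 8 at an unadjusted p under 0.05. Dusp5 alone had an adjusted p under 0.05, as did 29.6% of all genes at any fold, with a difference of 0.46 (SE 0.14, limma adjusted p = 0.0218), under 2-fold. Dusp10 was at 0.14 (SE 0.20, limma adjusted p = 0.619) there, with a higher Th2 culture at 3 time points and a lower one at 3. For the other 7 genes the differences between Th1 and Th0 were between -0.30 and 0.43 and those between Th2 and Th1 between -0.26 and 0.30, none with an adjusted p under 0.05. With Dusp10 included, 4 of the 8 had an unadjusted p under 0.05 in limma between Th1 and Th0. Between Th2 and Th1 3 of the 8 did. Dusp4 in Th1 held 1.01 to 2.25 times its Th0 level over the 6 time points, with a limma adjusted p = 0.202. Of the pathway and stress lists, Rasgrp1 was past the threshold between Th1 and Th0, with a lower level in Th1 (-1.01). Rasgrp2 (-1.15), Rasa3 (-1.17), Jun (-1.34) and Klf6 (-1.05) were lower and the stress factor Atf3 (1.33) higher in Th2 than in Th0. Against Th1, Th2 had more Atf3 (1.95) and Ptpn5 (1.01) and less Jun (-1.46), a main substrate of JNK, and Klf6 (-1.12). Among the cell type markers, Ncr1, of NK cells, was higher in Th1 than in Th0 (1.25). Ncr1 was lower in Th2 than in Th1 (-1.07). The B cell marker Cd79b was higher in Th2 than in Th1 (1.11). Lyz2, a macrophage and monocyte marker, was lower in Th2 than in Th0 (-1.10).

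**Figure D4:**
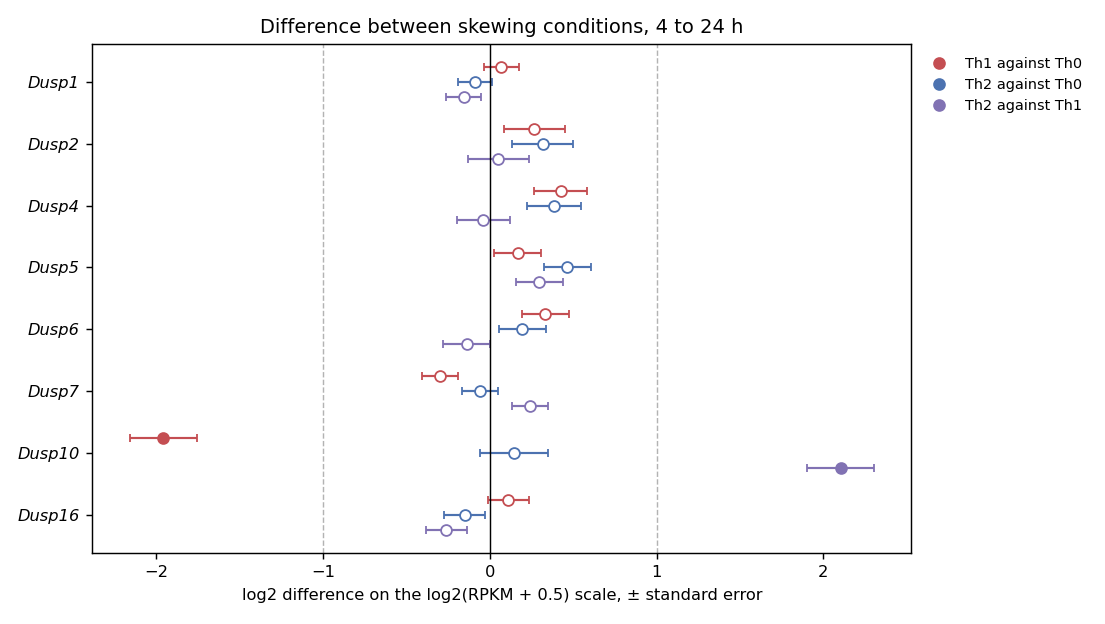
Log2 difference between each pair of skewing conditions over the 6 time points for each gene, with bars for the standard error of the limma fit, dashed lines at 2-fold and filled points past the threshold. Dusp10 alone has filled points, at -1.96 for Th1 against Th0 and 2.10 for Th2 against Th1, and all other points lie between -0.30 and 0.46.

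To ask whether the conditions drew apart or together with time, the change of each difference over the 20 h from 4 to 24 h was fitted. Between Th2 and Th0 5 of the 8 were past the threshold, beside 3.93% of all genes. In 4 of them, Dusp2 (-1.58, limma adjusted p = 0.0242), Dusp4 (-1.29, 0.0413), Dusp5 (-1.26, 0.0155) and Dusp6 (-1.21, 0.0221), Th2 was above Th0 at 4 and 8 h and at or below it by 24 h, as the values above show, and 3.21% of all genes moved this way. In Dusp10 the difference moved the other way, by 1.71 (SE 0.42, limma adjusted p = 0.0312). Its Th2 level was 0.997 of the Th0 level at 4 h, 0.481 at 8 h and 0.710 at 12 h. At 24 h it was 2.11 times the Th0 level. The value of 1.71 comes from a line through all time points and is not the change between 4 and 24 h alone. The count of genes past the threshold, 5, was 0 without 20 h, 0 without 24 h, 1 without 16 h, 2 without 8 h, 3 without 12 h and 6 without 4 h. In an alternative chosen after seeing the data, without both 4 and 8 h, Dusp10 was the only 1 left (2.50, limma adjusted p = 0.0248). The early Th0 libraries were also low in the ERK-induced genes. These 12 genes summed to 335 RPKM in Th0, 427 in Th1 and 727 in Th2 at 4 h. At 8 h they summed to 316, 611.8 and 794 RPKM. Of the 11 tested, 5 had a falling difference, Myc (-2.23), Fosl1 (-2.19), Egr2 (-1.58), Egr1 (-1.56) and Ier2 (-1.22). Other lists went both ways at 4 h. Th0 was the lowest of the conditions for the p38 module (275 RPKM) and the other phosphatases (400 RPKM). It was the highest for the other brakes on Ras and ERK (646 RPKM), the JNK module (206 RPKM) and the other DUSP genes (140 RPKM). The part of these libraries in the count was not tested in any other way.

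The difference between Th2 and Th1 changed with time in none of the 8 in limma, beside 0.950% of all genes, with 4 at an unadjusted p under 0.05 and values between -0.93 for Dusp2 and 0.85 for Dusp16 and the smallest adjusted p 0.173. Between Th1 and Th0 none passed in limma either, beside 0.0279% of all genes, with 3 at an unadjusted p under 0.05 and values between -0.85 for Dusp6 and 0.92 for Dusp10; without 4 h Dusp10 passed, at 1.77 (limma adjusted p = 0.0333).

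After actinomycin the level of a transcript is taken to follow its decay, although RPKM is relative to all RNA left. Dusp2 was at 108, 70.0, 21.6 and 23.9 RPKM after 0, 1, 2 and 4 h. Dusp1 was at 21.5, 8.37, 3.82 and 4.87 RPKM and Dusp6 at 13.9, 9.22, 4.10 and 3.70 RPKM. Dusp5 was at 68.2, 54.0, 20.6 and 23.6 RPKM and Dusp4 at 46.5, 38.5, 17.6 and 18.2 RPKM. All 5 had lost most of their transcript by 2 h, when 17.8% of Dusp1, 20.0% of Dusp2, 29.6% of Dusp6, 30.2% of Dusp5 and 37.9% of Dusp4 was left, and at 4 h the shares were 22.7%, 22.2%, 26.7%, 34.6% and 39.1%. Dusp1 was the fastest at 1 h, with 38.9% left, against 64.9% to 82.8% for the other 4. The median gene kept 96.4% at 1 h, 94.7% at 2 h and 99.9% at 4 h. From 2 to 4 h the levels of Dusp1, Dusp2, Dusp4 and Dusp5 rose, so a slope over the 4 h does not describe a steady loss. The reason for the rise was not tested.

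Dusp10, at 22.9, 17.5, 16.2 and 11.6 RPKM, Dusp7, at 15.1, 13.6, 10.4 and 8.16 RPKM, and Dusp16, at 5.16, 5.20, 3.36 and 3.09 RPKM, kept 50.9% to 59.8% at 4 h. The slope of log2 RPKM was past the threshold, at least 2-fold over the 4 h, in 5 of the 8, all of them lower, beside 9.55% of the 10571 genes tested in either direction and 5.58% lower. Over 4 h Dusp2 changed by -2.26 (SE 0.25, limma adjusted p = 1.23e-13), and only 7 genes had a lower value. Dusp1 changed by -1.91 (SE 0.31, limma adjusted p = 4.20e-07) and Dusp6 by -1.82 (SE 0.31, limma adjusted p = 9.83e-07). Dusp5 changed by -1.63 (SE 0.24, limma adjusted p = 2.85e-08) and Dusp4 by -1.43 (SE 0.24, limma adjusted p = 1.22e-06). Dusp10 (-0.90, limma adjusted p = 0.00518) and Dusp7 (-0.88, 0.0110) had an adjusted p under 0.05, as had 20.9% of all genes at any fold, but stayed under 2-fold, and Dusp16 (-0.74, 0.0957) did not pass. The median slope over all genes was 0.01. With 1 library per time and 2 residual degrees of freedom the spread was largely borrowed from other genes, and an exact permutation of 4 time points cannot go below p = 0.0833. Dusp1 lost the call without the 0 h library (-0.74, limma adjusted p = 0.379). With no filter on low values Dusp6 alone of the 5 kept its call.

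**Figure D5:**
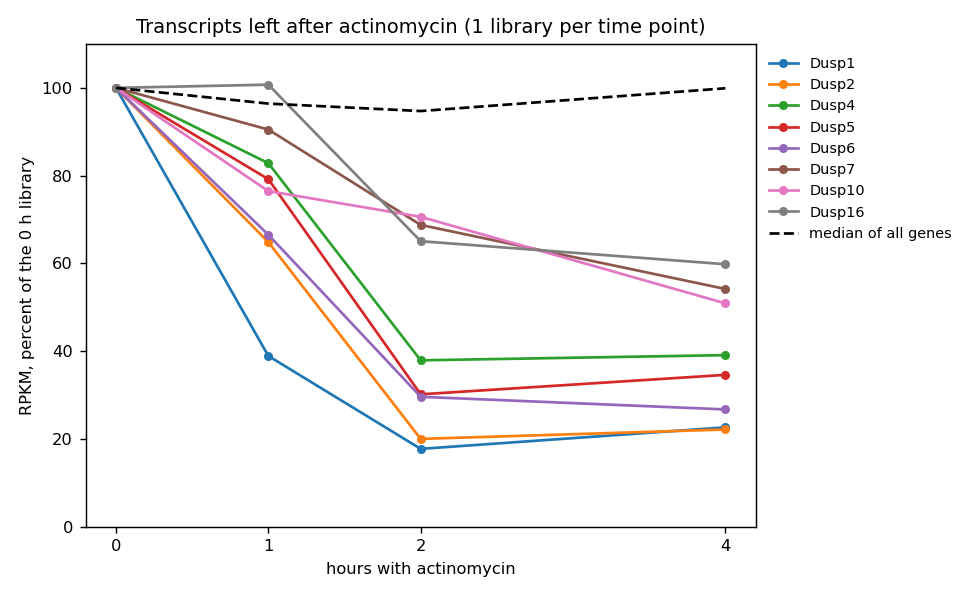
RPKM as a percentage of the 0 h library (axis from 0) against hours with actinomycin for each gene, 1 library per time point, with the median of all genes dashed. Dusp1, Dusp2, Dusp4, Dusp5 and Dusp6 lie between 17.8% and 37.9% at 2 h, whereas Dusp7, Dusp10 and Dusp16 lie between 65.1% and 70.6%.

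The 3′ untranslated regions of GENCODE M21 were searched for the AU-rich letters that destabilising proteins bind. The nonamer TTATTTATT was found in Dusp1 alone of the 8, in 2 copies, and in 8.19% of the 9907 genes with such a region among those tested after actinomycin. The pentamer ATTTA, which the nonamer contains, occurred 4 times in Dusp1 and 4 times in Dusp2, or 5.80 and 6.88 times per kilobase, against a median of 1.31 over all genes. Of the others Dusp10 and Dusp16 had 3, Dusp4 had 2, Dusp5 and Dusp6 had 1 each and Dusp7 had none. A stretch of each of the richest regions is shown, with the nonamer in capitals for Dusp1 (chr17:26506159-26506187, minus strand) and the pentamers in capitals for Dusp2 (chr2:127337992-127338021, plus strand, GRCm38).
Dusp1: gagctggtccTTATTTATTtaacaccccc
Dusp2: ttgcagaaattaATTTAattaattaATTTA
Dusp1 and Dusp2 were thus both the richest in ATTTA and those with the least left at 2 and 4 h. The other members did not follow this order at 4 h. Dusp10 and Dusp16, with 3 copies each, kept 50.9% and 59.8%, and Dusp4, with 2, kept 39.1%. Dusp5 and Dusp6, with 1 copy each, kept 34.6% and 26.7%, and Dusp7, with none, kept 54.2%. With 8 genes this is a description.

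The 0 h library of the actinomycin series, whose skewing condition the labels do not give, was set beside the cultures of 16 h, the time at which the drug was added. Dusp6 was at 13.9 RPKM there, 0.296 of the mean of the 16 h cultures and below all 3 of them. Dusp2, at 108 RPKM, was at 0.467 of their mean and also below all 3. Dusp1 (1.62 times), Dusp4 (1.34 times) and Dusp16 (1.19 times) lay above all 3, and Dusp5, Dusp7 and Dusp10 within their range. The 12 ERK-induced genes summed to 357 RPKM in that library and to 560 to 650 RPKM in the 16 h cultures. The markers of other cells differed too: the macrophage markers summed to 54.4 RPKM in that library against 11.6 to 27.5 RPKM in the 16 h cultures, the B cell markers to 4.40 against 21.4 to 22.7 RPKM and the NK cell markers to 10.8 against 24.8 to 26.4 RPKM. Their part in these differences was not tested. With 1 library there is no test, and handling and condition cannot be told apart.

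Genes whose time course was most like that of each phosphatase were found by Pearson's correlation of log2(RPKM + 0.5) over the 20 resting and culture libraries among 8477 other genes whose mean was 5 RPKM or more, as a description of libraries that share 1 pool of cells and the step from rest. For Dusp1 they were Apoe (0.99), a macrophage lipid carrier, and Ppp1r15a (0.98), a stress-induced phosphatase subunit. For Dusp2 they were Klf16 (0.94) and Nfatc1 (0.93), the latter a T cell receptor-driven factor, and for Dusp4 Psmb2 (0.98) and Arf1 (0.98). Dusp5 was nearest to Capzb (0.89) and Pim3 (0.88), Dusp6 to Rhof (0.94) and Ubxn2a (0.92), and Dusp7 to Mavs (0.85) and Tecr (0.83). Dusp10 was nearest to Tspan9 (0.94) and to Trat1 (0.94), an adaptor of the T cell receptor complex, whose mean over the 6 time points was 102 RPKM in Th0, 26.8 in Th1 and 82.2 in Th2. For Dusp16, over 8478 genes, they were Pias2 (0.92) and Ube2z (0.91).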

How the data were processed

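RNA sequencing was analysed from 24 libraries: 2 of resting cells, 18 cultures (Th0, Th1 and Th2 at 6 time points) and 4 after actinomycin, grouped by their labels. The table deposited by the authors holds RPKM values, and the processing notes name BWA and GRCm38; the counter and annotation are not given in the sources used here. Of its entries, 1 has no name and sums to 0, and was left out. The members and the gene lists were chosen with earlier results of these data known.

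All tests were run on log2(RPKM + 0.5) with limma 3.58.1 (R 4.3.3), using an intensity trend and adjusting p-values by Benjamini-Hochberg over every gene whose mean over the libraries fitted was 1 RPKM or more. Time points were compared over 20 libraries with time as a factor, conditions over 18 cultures with time as a factor, and changes of a difference with a condition by hours term; actinomycin was fitted as a slope on hours over 4 libraries. Fold changes on this scale understate those of low genes. All 8 members were named in each comparison. From the pathway lists, up to 3 rises and 3 falls past the threshold were named at 4 h, at 24 h and between conditions. From the immediate-early and stress list they were named at 4 h and between conditions. Cell type markers were named as single genes only between conditions. The 2 most alike genes per member were named too. Members of the lists named for the change with time were chosen after their values were seen.

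The fits were tested on simulated data first. Depth was recovered from whole-read steps, as in 1003 genes, 67.0% of which pointed to 1 common depth per library within 0.1%; values of Dusp4, Dusp5 and Dusp6 were whole multiples of 1 read (tolerance 0.02), whereas the other 5 were not, and no counting interval is given for those. Promoters were matched in RefSeq for 7 of 8 members. Alternatives were another pseudocount, filter, scaling or trend, fewer time points, and leaving out each library or time point. A result for 1 gene of the pathway lists is not reported here.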

Additional observations from a re-analysis of the deposited data

Results flagged for a closer look

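Dusp10 differed between conditions by a test of the difference itself: it was lower in Th1 than in Th0 (-1.96 on the log2 scale) and higher in Th2 than in Th1 (2.10), at 6 of 6 time points each. The difference between Th2 and Th0 changed over the 20 h in 5 genes by the test of that change: Dusp2 (-1.58), Dusp4 (-1.29), Dusp5 (-1.26), Dusp6 (-1.21) and Dusp10 (1.71). The first 4 had higher Th2 than Th0 levels at 4 and 8 h, whereas Dusp10 had higher Th2 levels from 16 h on. Each of the 5 calls of this change was lost in some alternatives.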

How the results depend on the processing

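Of 1126 alternatives for single genes, 1055 kept their direction and side of the threshold, which includes genes that were never past it. The calls for the Th2 against Th0 change with time held less often. They held in 10 of 15 alternatives for Dusp2, 7 for Dusp4, 12 for Dusp5 and 9 each for Dusp6 and Dusp10. Cultures were matched by time point in the tests between conditions. No other pairing was possible because the labels give replicate numbers only to the resting libraries. The calls of Dusp1 at 4 and 24 h and of Dusp10 between conditions held in all alternatives run. Dusp16 has no value under the filter at 5 RPKM.

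The count of phosphatases whose Th2 against Th0 difference changed with time, 5, was 1 with no filter and 1 without 4 and 8 h, and ran from 0 to 6 when 1 time point was left out. For Th1 against Th0 it was 0, and 0 to 1 when 1 time point was left out. The count after actinomycin, 5, was 1 with no filter. In the filter's absence many genes near 0 enter the fit; the cause was not tested.

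Signs turned only in genes not past the threshold. At 24 h Dusp6 was at -0.039 with upper-quartile scaling and Dusp2 at -0.098 with quantile normalization. From 12 to 24 h alone, Th2 against Th0 was at -0.11 in Dusp2, -0.084 in Dusp6 and 0.097 in Dusp7, Th2 against Th1 at -0.12 in Dusp2, and Th1 against Th0 at -0.023 in Dusp1 and -0.0080 in Dusp16. Without 4 and 8 h the change with time was -0.23 in Dusp16 for Th2 against Th0, and 0.21 in Dusp1 and 0.47 in Dusp2 for Th1 against Th0. With 1 library, condition or time point left out, the ranges that crossed 0 were -0.26 to 0.25 for Dusp5 at 4 h, -0.031 to 0.22 for Dusp6 and -1.19 to 0.096 for Dusp10 at 24 h, -0.013 to 0.38 for Dusp7 and -0.34 to 0.26 for Dusp2 at 24 h against 4 h, -0.11 to 0.033 for Dusp7 and -0.038 to 0.38 for Dusp10 in Th2 against Th0, -0.049 to 0.17 for Dusp2 and -0.16 to 0.059 for Dusp4 in Th2 against Th1, and -0.029 to 0.10 for Dusp1 in Th1 against Th0. For the change with time they were -0.48 to 0.099 for Dusp1 in Th1 against Th0 and -0.22 to 0.66 for Dusp16 in Th2 against Th0.

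Over all genes, the count at 4 h was 1152, and 646 under the filter at 5 RPKM. For Th2 against Th0 with time it was 422, and 82 to 1978 when 1 time point was left out (202 with no filter, 81 without 4 and 8 h); for Th2 against Th1 with time 102, and 22 to 278 (55 and 160); for Th1 against Th0 with time 3, and 0 to 45; after actinomycin 1010, 531 with no filter, 665 under the filter at 5 RPKM, 656 without the 0 h library and 535 without the 4 h library. Quantile normalization moved the share of changed genes that were higher from 24.7% to 39.9% at 4 h and from 42.3% to 52.4% at 24 h, where it shifted the median of all genes to 0.11; upper-quartile scaling moved that share from 18.2% to 28.3% for Th2 against Th0 with time and from 27.5% to 40.3% for Th2 against Th1 with time.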
